A study of Mus musculus with 24 samples.

Results

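Transcription factors that pattern the ventral forebrain were followed in primary female mouse neural stem cells (NSCs) with and without the MommeD43 mutation of Smchd1, which encodes a chromatin protein that keeps clustered genes and the inactive X chromosome silent. The 9 listed genes were Zfp503, Zfp703, Dlx1, Dlx2, Dlx5, Gsx1, Gsx2, Nkx2-1 and Meis2. They were matched by symbol to the deposited table of 14922 genes, which held 7 of them. Dlx5 and Nkx2-1 were among the 2 with no row and were not analysed here. Zfp503 was selected on these libraries, because its MommeD43 effect was among those that differed most between the strains, and the other genes were picked as ventral and striatal factors to set beside it. The values that chose Zfp503 are therefore given as a description, with no test in any comparison.

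The study sequenced poly(A) RNA from 24 libraries of adherent NSCs derived from E14.5 cortex. In FVB/NJ, cells were Smchd1+/+ (FVB_WT) or homozygous for the chemically induced MommeD43 allele (FVB_MD43). In C57BL/6J, MommeD43 was rebuilt by genome editing of a Smchd1-GFP fusion allele, so that B6GFP_MD43 cells were homozygous for a mutant fusion. Their controls (B6GFP_WT) are Smchd1+/+ by their labels and homozygous for the unmutated fusion by the study's methods, so strain and fusion change together and cannot be told apart. Of the 24 columns, 2 equalled the mean of their group mates, 1 in FVB_MD43 and 1 in B6GFP_MD43, and were left out. This left 6 libraries of 5 lines in FVB_WT, 5 of 4 lines in FVB_MD43, 6 of 4 lines in B6GFP_WT and 5 of 4 lines in B6GFP_MD43. Cells of both strains were in batch 1, whereas batch 2 was FVB and batch 3 was B6GFP. Lines rather than libraries are the replicates in each mean and SD below. MommeD43 is a missense mutation, so the RNA level of Smchd1 does not check the genotype.

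These genes belong to a program that makes the striatum and GABAergic neurons. In the embryo, the cortex arises from the dorsal telencephalon, whereas the ganglionic eminences below it give rise to striatal neurons and interneurons. Gsx2 and Gsx1 are homeobox factors of progenitors in the lateral eminence and act upstream of the Dlx genes. Dlx1 and Dlx2 are neighbouring homeobox genes that drive GABAergic differentiation and migration. Zfp503 (also Nolz1) and its paralogue Zfp703 are zinc finger repressors of the NET family. Zfp503 marks the developing striatum, and Meis2 is a TALE homeodomain cofactor found in striatal progenitors and in other neural cells.

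Whole reads could be recovered from the deposited log2 CPM (counts scaled to the size of each library), and library totals ran from 8.11 M to 59.3 M reads, with batch 2 the shallowest. All 8 NSC markers on the list were in the table, led by Vim, Fabp7 and Nes with means of 11.12, 10.58 and 10.16 log2 CPM. The pallial regulators Emx2 and Pax6 had means of 5.09 and 4.97, whereas the cortical factor Emx1 was near the floor at -3.04. In such bulk samples, fewer cells of a type and less RNA per cell cannot be told apart. One library, batch 3 of B6GFP_MD43 replicate 2, stood apart, with the highest value of 5 of the 6 neuron markers and of 4 of the 5 endothelial markers. Its summed neuron markers without Map2 were 378 CPM, against 20.9 to 119 (median 37.1) in the other 21 libraries. These sums come from the deposited, batch-corrected levels and not from the recovered reads. The B6GFP values of Zfp503, Dlx1, Dlx2 and Meis2 and some of the correlations between members are given with and without its line.

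The sequence around the start of Zfp503 is shown because this is the gene that the selection turned on. Zfp503 (Entrez 218820) lies on chromosome 14, from 21983959 to 21989601 on the minus strand of GRCm38.p6. The RefSeq window covers 250 bases before to 50 bases after its start (chr14:21989552-21989851, GRCm38.p6, minus strand) and is written 5′ to 3′, with every CG dinucleotide in capitals.

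Zfp503: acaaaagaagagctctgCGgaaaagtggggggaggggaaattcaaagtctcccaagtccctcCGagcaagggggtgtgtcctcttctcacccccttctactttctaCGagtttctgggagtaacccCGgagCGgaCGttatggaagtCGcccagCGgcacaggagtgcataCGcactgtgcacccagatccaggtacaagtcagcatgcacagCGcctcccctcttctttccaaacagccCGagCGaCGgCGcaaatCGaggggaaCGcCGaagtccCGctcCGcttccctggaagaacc

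This window held 19 CG dinucleotides and was 58.3% G or C. Of 27025 promoter windows of the same length, 28.4% had at least as many and 94.2% had at least 1, with a median of 7. The windows of the other members found in the promoter table held 27 (Dlx1), 29 (Dlx2), 19 (Gsx1), 17 (Gsx2) and 13 (Meis2). The 6 members found in that table all had more than this median, and the RNA data do not measure methylation or binding there.

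Zfp503 was low in all groups and lowest in B6GFP_MD43. The 6 FVB_WT libraries ran from -0.10 to 0.93 log2 CPM (median 0.13), the 5 FVB_MD43 libraries from -0.19 to 0.73 (median 0.31) and the 6 B6GFP_WT libraries from -0.44 to 0.69 (median 0.15). The 5 B6GFP_MD43 libraries were at -1.10 and -0.58 in batch 1 and at -1.11, -0.99 and -0.88 in batch 3. All 5 lay below each of the other 17 libraries, which overlapped one another across groups.

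In reads, these levels were small counts. B6GFP_MD43 had 25 and 34 Zfp503 reads in batch 1 and 20, 50 and 24 in batch 3, while B6GFP_WT had 56, 85 and 60 in batch 1 and 69, 46 and 170 in batch 3. An exact Poisson 95% interval, which covers counting error only, ran from 12.2 to 30.9 for the lowest of these counts (20) and from 145 to 198 for the highest (170). Batch 2 gave 7 to 19 reads per FVB library. As CPM recomputed from these reads, with no batch correction, B6GFP_MD43 spanned 0.646 to 0.955 and B6GFP_WT 1.27 to 2.87, with no overlap. On that scale B6GFP_MD43 did overlap FVB libraries of batch 2, the lowest of which had 0.864 CPM.

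**Figure D1:**
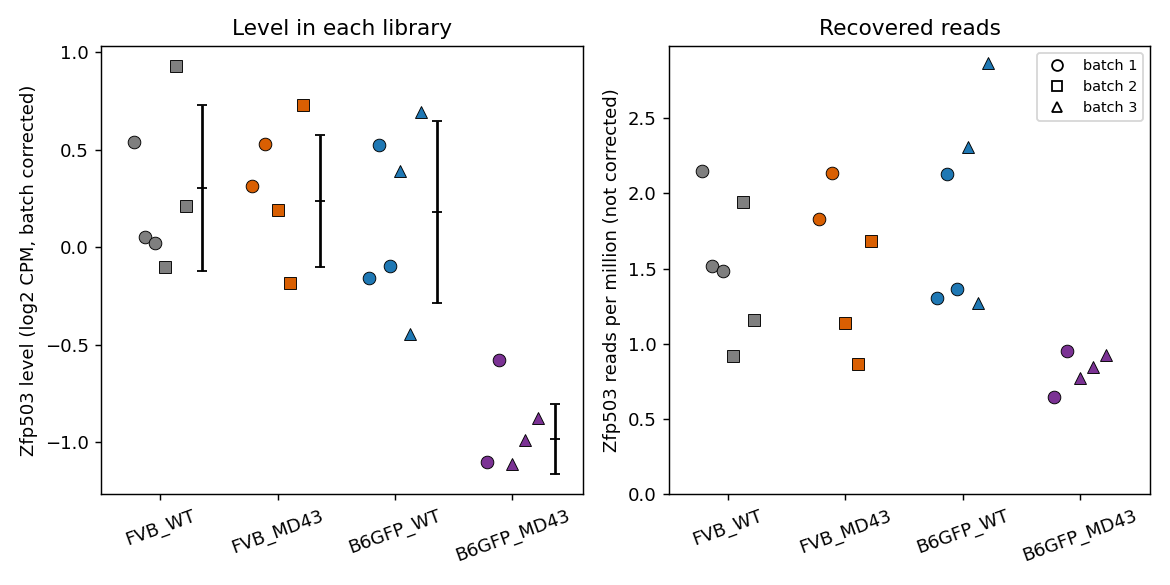
Zfp503 in 22 libraries of 4 groups. Left, the deposited level in log2 CPM, with the mean ± SD over lines beside each group; right, CPM from the recovered reads with no batch correction; symbols mark the batch. The 5 B6GFP_MD43 libraries lie at -1.11 to -0.58 log2 CPM, under the 17 others on the left, and share their range with some batch 2 libraries on the right.

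The 5 FVB_WT lines had a mean Zfp503 level of 0.30 ± 0.42 log2 CPM (SD) and the 4 FVB_MD43 lines one of 0.24 ± 0.34. The mean was 0.18 ± 0.47 over the 4 B6GFP_WT lines and -0.98 ± 0.18 over the 4 B6GFP_MD43 lines. In this order of levels, the first 3 groups differ by less than the spread of their lines, and B6GFP_MD43 stands below them by more than that spread. All 4 B6GFP_MD43 lines were below all 4 B6GFP_WT lines, a pattern met with MommeD43 lower in 70 of 14922 genes (0.469%), which is a description of how the gene was chosen and not a test. In FVB, 2 of 4 MommeD43 lines were above the wild-type mean and 2 were below it.

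The fitted MommeD43 difference of Zfp503 was -1.11 ± 0.23 log2 (SE) in B6GFP, 0.464 times the wild-type level, and 0.30 ± 0.18 in FVB. The difference between strains was -1.41 ± 0.29, and 39 genes had a larger absolute difference, which describes the selection and is not a test. This strain difference was -0.94 without B6GFP_WT replicate 2 and -0.66 with 1 added to the CPM. Between the strains, Zfp503 differed by 0.04 ± 0.20 in wild type and by -1.37 ± 0.24 in MommeD43 cells. The fit gave each library a quality weight (0.101 to 4.90). The highest weights were in batch 1 of FVB_MD43 replicate 2 (4.90) and FVB_WT replicate 2 (4.26), so these lines count most in the FVB values. Without weights the FVB value of Zfp503 was -0.01 and the B6GFP value -1.11. Within batches, the group means of B6GFP differed by -0.93 in batch 1 and by -1.21 in batch 3, and those of FVB by 0.22 in batch 1 and by -0.10 in batch 2. Without B6GFP_WT replicate 2 the B6GFP value was -0.64, and without B6GFP_MD43 replicate 2, the library with the neuron markers, it was -1.14.

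Zfp703, the paralogue, did not have such a pattern. Its lines averaged 4.14 ± 0.19 log2 CPM in FVB_WT, 3.95 ± 0.13 in FVB_MD43, 4.20 ± 0.62 in B6GFP_WT and 3.98 ± 0.36 in B6GFP_MD43 (SD, n = 5, 4, 4 and 4). The 6 FVB_WT libraries ran from 3.93 to 4.56 (median 4.18) and the 5 FVB_MD43 libraries were at 4.09, 4.03, 3.82, 3.84 and 4.03. B6GFP_WT ran from 3.50 to 5.10 (median 4.04), and B6GFP_MD43 libraries were at 3.78 and 4.25 in batch 1 and 3.59, 4.33 and 4.20 in batch 3. The groups overlapped in both strains, and the highest value, 5.10 with 2513 reads, came from B6GFP_WT replicate 4. The fitted changes were -0.19 ± 0.10 in FVB (95% interval -0.40 to 0.02, adjusted p = 0.80) and -0.05 ± 0.13 in B6GFP (-0.32 to 0.22, adjusted p = 1).

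**Figure D2:**
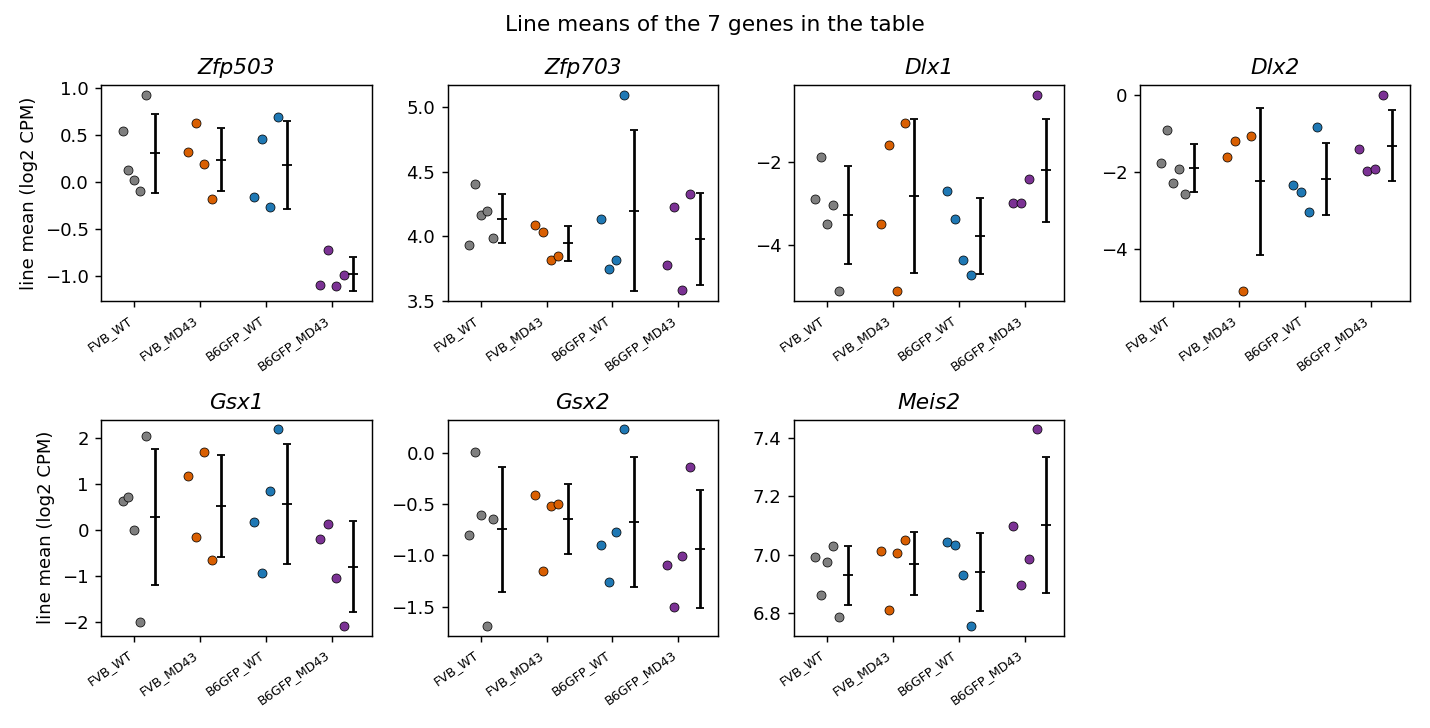
Line means (log2 CPM) of the 7 genes in the table by group, with the mean ± SD over lines beside the points. Only the Zfp503 panel has a group, B6GFP_MD43, whose lines lie apart from those of its own controls; levels should not be compared between panels, since CPM is not scaled to gene length.

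Gsx1, a progenitor factor of the lateral eminence, varied more between lines than between groups. FVB_WT libraries ran from -2.0 to 2.06 log2 CPM (median 0.32) on 2 to 66 reads, and B6GFP_WT libraries from -0.96 to 2.19 (median 0.35) on 10 to 205 reads. FVB_MD43 libraries were at 1.18 and 0.48 in batch 1 and at 1.70, -0.65 and -0.78 in batch 2. B6GFP_MD43 libraries were at -0.20 and -0.35 in batch 1 and at -1.05, -2.08 and 0.61 in batch 3. All 4 B6GFP_MD43 lines were below the B6GFP_WT mean (-0.80 ± 0.99 against 0.56 ± 1.31, SD, n = 4 each), but the groups overlapped. The fitted change was -0.23 ± 0.61 in B6GFP (-1.50 to 1.03, adjusted p = 1) and 0.65 ± 0.47 in FVB (-0.32 to 1.62, adjusted p = 0.888), and the strain difference was -0.88 ± 0.77 (-2.48 to 0.71, adjusted p = 0.9999). The highest and lowest of the B6GFP libraries, B6GFP_WT replicate 4 (2.19) and B6GFP_MD43 replicate 2 (-2.08), carried weights of 0.101 and 0.158, and within batches the means differed by -0.40 in batch 1 and by -1.43 in batch 3.

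Gsx2, the related factor that specifies striatal progenitors, was close in all 4 groups, with line means of -0.75 ± 0.61 in FVB_WT, -0.64 ± 0.34 in FVB_MD43, -0.67 ± 0.63 in B6GFP_WT and -0.94 ± 0.57 in B6GFP_MD43 (SD, n = 5, 4, 4 and 4). Libraries held 6 to 75 reads, and the ranges overlapped throughout. The fitted differences, the first of which has the opposite sign to the line means, were -0.28 ± 0.25 in FVB (-0.80 to 0.23, adjusted p = 0.921) and -0.23 ± 0.32 in B6GFP (-0.89 to 0.44, adjusted p = 1). Fitted values and line means also differed in sign for Zfp503, Dlx2 and Meis2 in FVB and for Meis2 in B6GFP.

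Dlx1 and Dlx2, the GABAergic differentiation factors, had few reads in most libraries. Dlx1 had 0 reads in 7 of 22 libraries and at most 15 in all but 1. That library was batch 3 of B6GFP_MD43 replicate 2, with 152 Dlx1 reads (-0.37 log2 CPM) and 98 Dlx2 reads (0.02 log2 CPM). Dlx2 had 0 reads in 3 of 22 libraries, and its highest level, 0.99 log2 CPM on 48 reads, was in FVB_WT replicate 2 of batch 2. The highest Dlx1 value thus fell in the library with the highest neuron markers, in which Tubb3, Dcx and Stmn2 were at 6.48, 5.20 and 2.97 log2 CPM against at most 3.85, 2.32 and -0.11 in the other 21. The part of the neuron content in the Dlx values was not tested.

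In FVB, Dlx1 averaged -3.27 ± 1.18 log2 CPM in wild type and -2.80 ± 1.85 in MommeD43, and Dlx2 averaged -1.89 ± 0.63 and -2.24 ± 1.92 (SD, n = 5 and 4). In B6GFP, Dlx1 averaged -3.78 ± 0.93 in wild type and -2.19 ± 1.24 in MommeD43, and Dlx2 averaged -2.18 ± 0.95 and -1.31 ± 0.92 (n = 4 each). The lines of the groups overlapped for both genes. The Dlx1 means depend on the value that a library with 0 reads was given, which was -3.48 in batch 1 and -5.10 in batch 2, while 1 read in batch 3 was -5.23. Within batches, the B6GFP means of Dlx1 differed by -0.02 in batch 1, on 0 to 2 reads, and by 2.63 in batch 3, which holds the library with 152 reads. Replicates 4 and 3 of B6GFP_MD43 in batch 3 were at -2.41 and -2.51, on 15 and 14 reads. The B6GFP_WT libraries of batch 3 were at -3.23, -5.23 and -4.71. The fitted B6GFP changes were 0.37 ± 0.63 for Dlx1 (-0.93 to 1.67) and 0.83 ± 0.63 for Dlx2 (-0.48 to 2.14), both with adjusted p = 1. Without B6GFP_MD43 replicate 2, which carried a weight of 0.158, they were 0.31 and 0.81. The FVB changes were 0.73 ± 0.48 for Dlx1 (-0.28 to 1.73, adjusted p = 0.876) and 0.89 ± 0.48 for Dlx2 (-0.12 to 1.90, adjusted p = 0.808), and for Dlx2 the unweighted value was -0.35. The intervals show how little these counts could resolve. Dlx1 (chromosome 2, 71528113 to 71533981) overlaps an antisense gene, and the strand setting of the counting is not given in the sources used here, so its reads are uncertain.

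**Figure D3:**
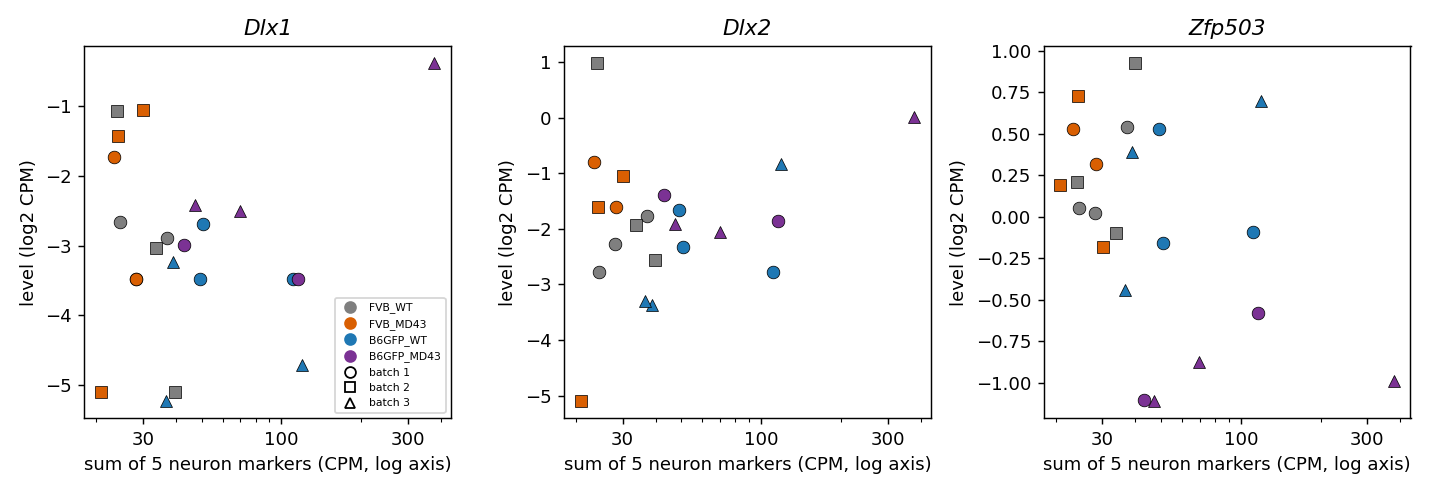
Dlx1, Dlx2 and Zfp503 (log2 CPM) against the sum of 5 neuron markers in 22 libraries, coloured by group with a symbol for each batch. The markers are Tubb3, Dcx, Rbfox3, Stmn2 and Syt1, summed in CPM from the deposited, batch-corrected levels, on a log axis. The library at 378 CPM of neuron markers has the highest Dlx1 value (-0.37), and its Zfp503 value (-0.99) is among those of the other B6GFP_MD43 libraries.

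Meis2 was the steadiest member, on 1287 to 10381 reads a library. Its line means were 6.93 ± 0.10 log2 CPM in FVB_WT, 6.97 ± 0.11 in FVB_MD43, 6.94 ± 0.13 in B6GFP_WT and 7.10 ± 0.23 in B6GFP_MD43 (SD, n = 5, 4, 4 and 4). The fitted changes were -0.04 ± 0.06 in FVB (-0.16 to 0.07, adjusted p = 0.955) and -0.00 ± 0.07 in B6GFP (-0.16 to 0.15, adjusted p = 1). The highest Meis2 level, 7.43, was again in the library with the neuron markers, and without that line the B6GFP value was -0.02.

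Over the 6 tested members, none passed in limma for MommeD43 against wild type, with 0 at an unadjusted p under 0.05 in either strain. In FVB the share over all genes was 0.0737% (11 of 14922) and in B6GFP it was 0%. For the difference of the MommeD43 effect between the strains no member passed, as no gene of the table did (0%), and the fitted differences ran from -0.88 (Gsx1) to 0.14 (Zfp703). The median change of the 6 was 0.30 in FVB and -0.03 in B6GFP, against 0.01 and 0.01 over all genes. With voom on the recovered reads, none passed either. Gsx1 and Zfp703 were the 2 members at an unadjusted p under 0.05 in FVB by voom, beside 1562 of all 14922 genes.

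**Figure D4:**
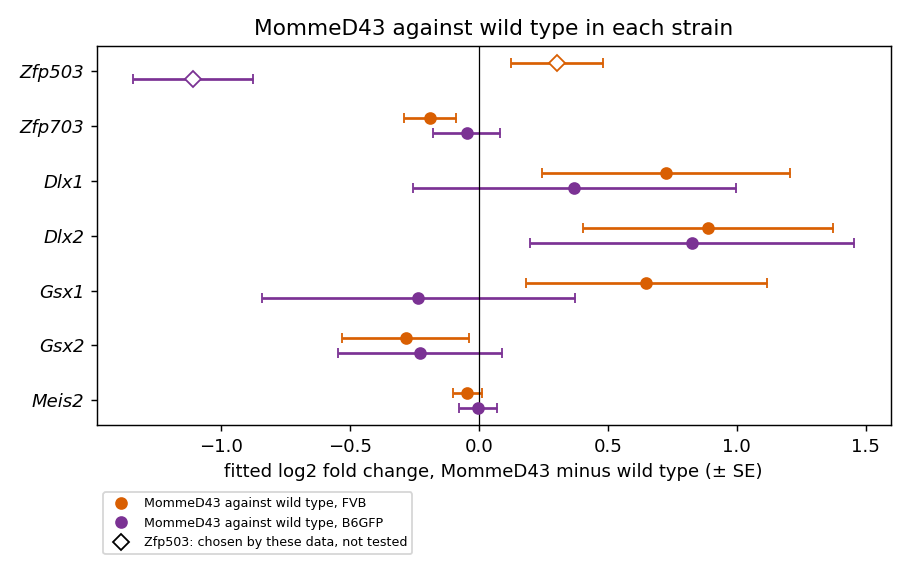
Fitted log2 fold change (MommeD43 minus wild type, bars ± SE) of the 7 members in FVB and B6GFP. The open diamonds of Zfp503 (0.30 and -1.11) were chosen by these data and not tested; none of the 6 other genes passed in either strain.

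Between the strains, by contrast, much of the table differed, with 41.1% of all genes passing in wild type and 34.4% in MommeD43 cells, and still none of the 6 members passed in either comparison (0 at an unadjusted p under 0.05 in both). Meis2 was nearest, at 0.11 ± 0.06 in wild type (adjusted p = 0.181) and 0.15 ± 0.08 in MommeD43 cells (adjusted p = 0.130), and it passed in both when each library was centred on its median (0.17 with adjusted p = 0.0449, and 0.22 with adjusted p = 0.0380). The adjusted p of Meis2 in MommeD43 cells was as low as 9.1e-04 with 1 line left out, B6GFP_MD43 replicate 3, where the value was 0.23.

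The wider ventral and striatal programs were read from lists of known genes. Of 25 ventral progenitor genes on the list, 19 had a row, and of 28 striatal and GABAergic genes, 22 had one. None passed for MommeD43 in FVB, in B6GFP or in the difference between strains by limma or by voom. By limma, 4 ventral and 4 striatal genes had an unadjusted p under 0.05 in FVB, beside 1024 of all 14922 genes. In B6GFP 1 and 0 did, beside 319 of all 14922 genes. The ventral median was 0.07 in FVB and -0.01 in B6GFP, and the striatal median was 0.01 and -0.01. Among the striatal genes, Ebf1, a factor of striatal projection neurons, had the smallest p in FVB (-1.67 ± 0.33, adjusted p = 0.0639). Nearest in B6GFP were Gbx2, a homeobox factor, at -1.38 ± 0.54 and Gad2 at -0.55 ± 0.36 among the genes of the 2 lists that were named by rank, together with Etv1 (0.12 ± 0.06) and Pou3f1 (0.27 ± 0.17), all with adjusted p = 1. The line means went the other way for Gad2 (-2.60 in B6GFP_WT and -2.41 in B6GFP_MD43) and for Etv1 (6.43 and 6.36).

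Between strains in wild type, 6 of 19 ventral genes passed (4 higher and 2 lower in B6GFP). Of 22 striatal genes 8 passed (4 higher and 4 lower), and 41.1% of all genes did in this comparison. Gad2, which makes GABA, was the most divergent, with line means of 1.97 ± 0.55 log2 CPM in FVB_WT and -2.60 ± 0.55 in B6GFP_WT (fitted -4.06 ± 0.32, adjusted p = 2.7e-09). Ebf1 was higher in B6GFP in wild type (1.71 ± 0.37, adjusted p = 0.00104) and in MommeD43 cells (2.97 ± 0.44, adjusted p = 2.6e-05). Bcl11b, the striatal zinc finger factor also called Ctip2, was likewise higher in both (1.09 ± 0.19, adjusted p = 9.4e-05, and 1.01 ± 0.22, adjusted p = 0.00123). Meis1, the paralogue of Meis2, was lower in wild type (-0.60 ± 0.09, adjusted p = 1.7e-05) and in MommeD43 cells (-0.43 ± 0.10, adjusted p = 0.00325). Olig2 was higher in both (0.26 ± 0.05, adjusted p = 5.6e-04, and 0.20 ± 0.06, adjusted p = 0.0175). In MommeD43 cells 4 of 19 ventral and 6 of 22 striatal genes passed, beside 34.4% of all genes. Among them was Nr2f2 (-1.35 ± 0.45, adjusted p = 0.0248), whose line means were closer, at 0.94 ± 1.16 in FVB_MD43 and 0.65 ± 0.77 in B6GFP_MD43.

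Retinoic acid signalling and the corepressors of NET proteins were read next, since NET proteins repress transcription through such partners. Of 16 retinoic acid genes 10 had a row, and all 11 corepressor genes did. None passed for MommeD43 in either strain or in the difference, by limma or by voom. By limma, 2 retinoic acid genes and 1 corepressor gene had an unadjusted p under 0.05 in FVB, beside 1024 of all 14922 genes. In B6GFP 0 did, beside 319 of all 14922 genes. The medians of the 2 lists were -0.05 and -0.00 in FVB and 0.06 and 0.03 in B6GFP. The nearest were Aldh1a1, which makes retinoic acid (0.81 ± 0.37, adjusted p = 0.673), and the Groucho corepressor Tle2 (-0.40 ± 0.13, adjusted p = 0.423), both in FVB. Between strains in wild type, 4 of 10 and 6 of 11 passed, beside 41.1% of all genes. Aldh1a1 was higher in B6GFP (3.17 ± 0.41, adjusted p = 4.0e-06), and so were Aldh1a3 (1.26 ± 0.28, adjusted p = 0.00112), the receptor Rara (0.79 ± 0.22, adjusted p = 0.00776) and the deacetylase Hdac1 (0.68 ± 0.06, adjusted p = 9.6e-09). Rarb was lower (-0.76 ± 0.30, adjusted p = 0.0437). In MommeD43 cells 4 and 5 passed, all higher in B6GFP, beside 34.4% of all genes.

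Dorsal (pallial) factors, the counterpart of the ventral program, had 14 of 16 genes in the table. None passed for MommeD43 in either strain or in the difference by limma or by voom, with medians of 0.11 in FVB and -0.03 in B6GFP. By limma, 2 had an unadjusted p under 0.05 in FVB and 0 in B6GFP, beside 1024 and 319 of all 14922 genes. Lhx2, a selector gene of cortical identity, had 0.28 ± 0.12 in FVB (adjusted p = 0.586). In wild type 4 of 14 differed between strains, beside 41.1% of all genes, with Lef1 (1.56 ± 0.34, adjusted p = 0.00102) and Tbr1 (1.56 ± 0.51, adjusted p = 0.0192) higher in B6GFP and Emx2 (-0.22 ± 0.07, adjusted p = 0.0140) and Dmrta1 (-0.58 ± 0.21, adjusted p = 0.0292) lower. The fitted Tbr1 value was not seen in its line means, which were -1.60 ± 0.83 in FVB_WT and -1.60 ± 1.65 in B6GFP_WT. In MommeD43 cells none of the 14 passed by limma, beside 34.4% of all genes. An unadjusted p under 0.05 was reached by 4, beside 6556 of all 14922 genes. By voom 2 passed, beside 4756 of all 14922 genes.

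**Figure D5:**
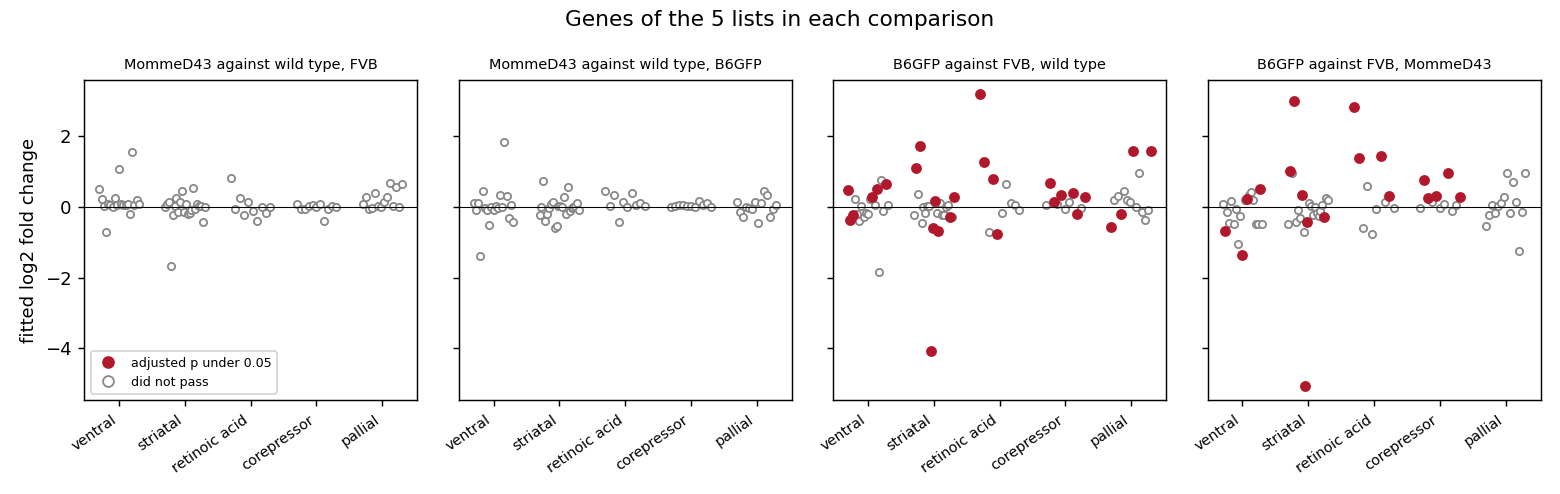
Fitted log2 fold changes of the genes of 5 lists (one point a gene) in 4 comparisons, with filled points for adjusted p under 0.05. No point is filled in the MommeD43 panels; in the strain panels the lowest points (-4.06 and -5.05) are Gad2.

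The genes nearest to Zfp503 on chromosome 14 did not pass for MommeD43 in either strain or in the strain difference. Of the genes that start within 500 kb of its start, 3 had a row: Comtd1 at 141 kb, the mitochondrial channel gene Vdac2 at 164 kb and Samd8 at 239 kb. For MommeD43 in B6GFP they had -0.17 ± 0.20, 0.02 ± 0.05 and -0.01 ± 0.06, each with adjusted p = 1. In FVB they had 0.30 ± 0.15, -0.02 ± 0.04 and 0.10 ± 0.05, with adjusted p of 0.790, 0.973 and 0.721. The strain difference of Comtd1, the nearest, was -0.47 ± 0.25 (adjusted p = 0.9999), in the same direction as that of Zfp503, and its line means were 1.87 in FVB_WT, 2.16 in FVB_MD43, 1.75 in B6GFP_WT and 1.52 in B6GFP_MD43.

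Among the 11969 genes with a mean above 1 log2 CPM, those whose 17 line means followed Zfp503 most closely by Pearson r were Cpq (Pearson r = 0.87, Spearman rho = 0.90), Dhx35 (0.84 and 0.86), Dap (0.81 and 0.88), Cyb5d2 (0.81 and 0.73) and Unc79 (0.80 and 0.84). Cpq, a secreted peptidase gene, had group means of 3.12, 3.01, 2.67 and 1.49 log2 CPM in FVB_WT, FVB_MD43, B6GFP_WT and B6GFP_MD43. A low last group follows from picking genes by their r with Zfp503 and is not a separate result. With the group means removed, the r values of the 5 were 0.68, 0.75, 0.72, 0.61 and 0.66, and the 5 closest genes were then others, led by Zdhhc9 (0.86). By Spearman rho, Actg1 (0.86) took the place of Cyb5d2. None of the 5 passed for MommeD43 in either strain. Over the same lines, Zfp503 had r = 0.59 with Gsx1 and -0.61 with Meis2, while the other members lay between -0.45 (Dlx1) and 0.28 (Zfp703). These values include the low B6GFP_MD43 group on which Zfp503 was chosen. With the group means removed they were 0.489 and -0.476, and the other members lay between -0.326 (Dlx1) and 0.305 (Zfp703). Dlx1 and Dlx2 had r = 0.70 with each other, and Dlx1 had r = -0.73 with Gsx1. Both Dlx genes had 0 reads in FVB_MD43 replicate 4, at -5.10 log2 CPM each, so the value given to 0 reads enters these r values. Without B6GFP_MD43 replicate 2, over 16 lines, r was 0.51 for Zfp503 with Gsx1, -0.53 for Zfp503 with Meis2, 0.62 for Dlx1 with Dlx2 and -0.64 for Dlx1 with Gsx1. The lines share batches, culture and depth, and these correlations are descriptions of 17 points.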

How the data were processed

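Poly(A) RNA of 24 NSC libraries (100 ng each, under 10 passages) was sequenced. The authors trimmed reads with Trim Galore 0.4.4, mapped them with HISAT2 2.0.5 to GRCm38.p6 and deposited log2 CPM, corrected for batch with limma 3.40.6, of 14922 genes. These values were used as deposited. For each library, all values were whole reads to within 0.01, once its batch shift and scale were solved for, which gave the read totals. The fits (limma 3.58.1, R 4.3.3) took 22 columns, with group and batch terms, array quality weights, a mean-variance trend and the line as a block (consensus correlation 0.083), with Benjamini-Hochberg adjustment over all genes and a threshold of 0.05. SE and 95% intervals are from the fit. Lists were given as counts and medians. Named list genes were those with the smallest p, at most 4 that passed or 2 where none did. Some list genes that this rule named are not reported here. Similar genes were the 5 with the highest r. Members and lists were chosen with earlier results of these data known. Nothing in the labels says which lines came from separate embryos. The p-values measure the weighted spread between libraries of these lines, with 16 residual degrees of freedom. At the low consensus correlation, libraries of 1 line counted as nearly independent. Alternatives were other weights, blocks, scalings, filters, batches and left-out lines. The voom fit, the fit without batch 2 and the correlations without 1 line were added after seeing the data.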

Additional observations from a re-analysis of the deposited data

Results flagged for a closer look

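Over 28 combinations of member and group, the line means of 4 or 5 lines were screened for a value that stood apart (a gap to the nearest line above Dixon's 95% critical value), which chance gives in about 1 in 20 groups. There were 2 such values. Dlx2 in FVB_MD43 replicate 4 was at -5.10 log2 CPM, with 0 reads, against -1.61 to -1.06 in the other lines. A library with 0 Dlx2 reads was at -2.78 in batch 1 and at -5.10 in batch 2, so the gap depends on the value given to 0 reads in batch 2. Gsx2 in FVB_MD43 replicate 2 was at -1.15, against -0.52 to -0.41 in the other lines. Neither gene passed for MommeD43 in FVB.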

How the results depend on the processing

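Of 31 other fits, 17 of which left out a line, 30 gave values for each strain and 29 for the strain difference, and none of the 6 tested members passed there. Of 867 member values over all 5 comparisons, 111 had the other sign and 12 passed, all 12 between strains. In wild type 1 member passed when each library was centred on its median. In MommeD43 cells 1 did so with centring, 6 did with all 24 columns, where 2 columns are means of others, and 0 to 2 did with a line left out. Values with the other sign for MommeD43 were as follows. With all 24 columns Meis2 had 0.017 in FVB and 0.040 in B6GFP. In single batches they were -0.087 for Dlx1 (batch 1, B6GFP), -1.06, -1.17 and 0.048 for Dlx2, Gsx1 and Meis2 (batch 2, FVB), and 0.010, 0.089, 0.086 and 0.43 for Gsx1, Gsx2, Meis2 and Zfp703 (batch 3, B6GFP). With the mean of each line Meis2 had 0.013 in FVB and 0.061 in B6GFP, without array weights it had 0.028 and 0.13 and Dlx2 had -0.35 in FVB, and with a filter above 0 log2 CPM in at least 4 libraries, which took out Dlx1, Dlx2 and Gsx2, Meis2 had 9.1e-04 in B6GFP. With a line left out, the ranges that crossed 0 for MommeD43 were -0.50 to 1.29 for Dlx1, -0.47 to 0.10 for Gsx2 and -0.10 to 0.10 for Meis2 in FVB, -0.98 to 0.23 for Gsx1, -0.15 to 0.068 for Meis2 and -0.23 to 0.19 for Zfp703 in B6GFP. The Meis2 range between strains in MommeD43 cells was -0.014 to 0.23. The cause was not tested.

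Zfp503 in B6GFP stayed below 0 in all fits, from -1.32 to -0.64 with a line left out and at -0.49 with 1 added to the CPM. Its FVB value ran from -0.01 to 0.35. Zfp503 was chosen on these same libraries, so its sign in these refits describes the selection and is not a test. With a replicate block (number within strain) Zfp503 had -0.71 in B6GFP and Zfp703 had 0.017. Whether the labels' numbers pair lines is not known. Of 8 MommeD43 lines, 0 correlated best with the wild-type line of their number, and so few lines cannot show that pairs are absent. B6GFP line names that share a first number across genotypes were also taken as 1 block, which left Zfp503 at -1.09 in B6GFP and no tested member past the threshold. The replicate block moved the genes passing from 11 to 29 in FVB, from 0 to 2 in B6GFP, from 6131 to 344 between wild types and from 5126 to 352 between MommeD43 groups. Over the other fits, the genes passing ran from 0 to 981 in FVB (981 without FVB_MD43 replicate 2, 77 by voom, 510 with all 24 columns), from 0 to 480 in B6GFP, from 0 to 61 in the strain difference, from 344 to 6440 between wild types and from 352 to 13991 between MommeD43 groups, and were 1259 and 1017 in these last 2 without weights. Few reads limit Dlx1 and Dlx2 in every batch, and depth limits Zfp503 in batch 2.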
